A study of Homo sapiens with 6 samples.

Results

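The translation initiation factor genes were the protein-coding genes of the count table whose symbol starts with EIF1 to EIF6. The eIF2alpha kinase genes (EIF2AK) and the eIF4E-binding protein genes (EIF4EBP) belong to them, and EIF1AY was left out by the rule. The rule took 55 of the 61859 genes in the table, and 54 of these were among the 16411 genes with enough reads to be tested. EIF4E1B, a germline relative of eIF4E, had 5 reads over all libraries and was not tested. The other 54 members exceeded the read filter in all 6 libraries, so none entered through only the group in which it was high. RNA was sequenced from IOMM-Lee, an established human cell line from a malignant meningioma, given as grade 3 in the labels. The normoxia group (3 libraries) was kept for 48 h in an incubator at 37 °C with 5% CO2, and its oxygen level is not given in the labels. The hypoxia group (3 libraries) was kept for 48 h in a hypoxia workstation with 0.2% oxygen at the same temperature and CO2, both groups in DMEM with 10% serum and antibiotics. No gene was edited and no drug was compared, and all 6 libraries come from a single line, so the values describe this line. The comparison asks how transcript levels of the initiation machinery differ between cells held at low oxygen and cells held in normoxia.

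Initiation brings the small ribosomal subunit, the initiator tRNA and an mRNA together at a start codon. eIF2 carries the initiator tRNA, eIF2B recharges eIF2 with GTP, eIF3 holds the small subunit and the mRNA together, and the cap-binding complex eIF4F (the cap-binding protein eIF4E, the scaffold eIF4G and the helicase eIF4A) loads the mRNA through its 5′ cap. Cells set the rate of initiation mainly at 2 points: eIF2alpha kinases phosphorylate eIF2 and so block eIF2B, and the 4E-BP proteins bind eIF4E and keep eIF4G away when the kinase mTORC1 is inactive. Low oxygen is known to act on both points, largely through phosphorylation, which RNA levels do not show.

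The libraries held 14685317 to 19554178 counted reads in normoxia and 10619864 to 18447885 in hypoxia. Levels are given as CPM, reads per gene scaled by the library total with TMM factors, and, wherever genes are compared with each other, per kilobase of exon (RPKM). Groups separated on the first principal component, and hypoxia replicate 3 stood apart from the other hypoxic libraries on the next. Of 10 meningeal markers, VIM, DSP, CDH2, MUC1, CRABP2 and FOXC1 were present at 2.45 CPM or more in every library, while PTGDS, ALPL and SLC6A20 were at or near 0 and SSTR2 was at 0.18 to 1.15 CPM. Leukocyte and keratinocyte markers reached at most 1.05 CPM and endothelial ones 3.43 CPM, whereas the neural and glial markers OLIG2 and RBFOX3 were at 2.17 to 7.59 and 5.30 to 11.6 CPM and GFAP and SOX10 at 0.31 to 1.57 and 0 to 0.84 CPM. Of these 4 OLIG2 was called lower in hypoxia (-0.85, edgeR adjusted p = 0.0286), and the part of such markers in the results was not tested. The hypoxia targets CA9, VEGFA, NDRG1 and SLC2A1 were higher in hypoxia by 3.72, 3.45, 6.45 and 3.27 on the log2 scale. Mitochondrially encoded genes took 6.42% to 7.29% of reads in normoxia and 2.05% to 3.05% in hypoxia, and their part in the results was not tested beyond leaving them out, which gave 21 members higher and 18 lower.

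The initiation factor genes moved in both directions under hypoxia, and most complexes split within themselves. EIF4EBP1 and EIF1 rose most, EIF2B3, EIF4EBP2, EIF3A, EIF5AL1 and EIF5A fell most, and the eIF3, eIF2 and eIF4A groups held members of both kinds. With the edgeR quasi-likelihood test on raw counts and Benjamini-Hochberg adjustment over all 16411 genes, 22 of the 54 tested members were higher, 18 were lower and 14 were not called at an adjusted p of 0.05. These 40 called members are 74.1% of those tested, beside 62.2% of all genes. The background was 31.2% of genes for higher calls and 31.0% for lower calls. The same background applies to the counts of calls for each complex and list below. The 3 hypoxic values lay wholly above or below the 3 normoxic values for 44 members, against 67.9% of all genes. Large changes were rare among the members: 5 were called with a log2 change of at least 1, against 16.3% of genes, and 5 with a log2 change of at most -1, against 17.7% of genes. The members' median log2 change was 0.12, beside 0.01 over all genes tested. Without normoxia replicate 1 the higher members numbered 14, and without hypoxia replicate 1 the members' median was -0.0331. In bulk RNA, fewer cells of a type and less RNA per cell cannot be told apart, and each value is a share of a library.

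**Figure D1:**
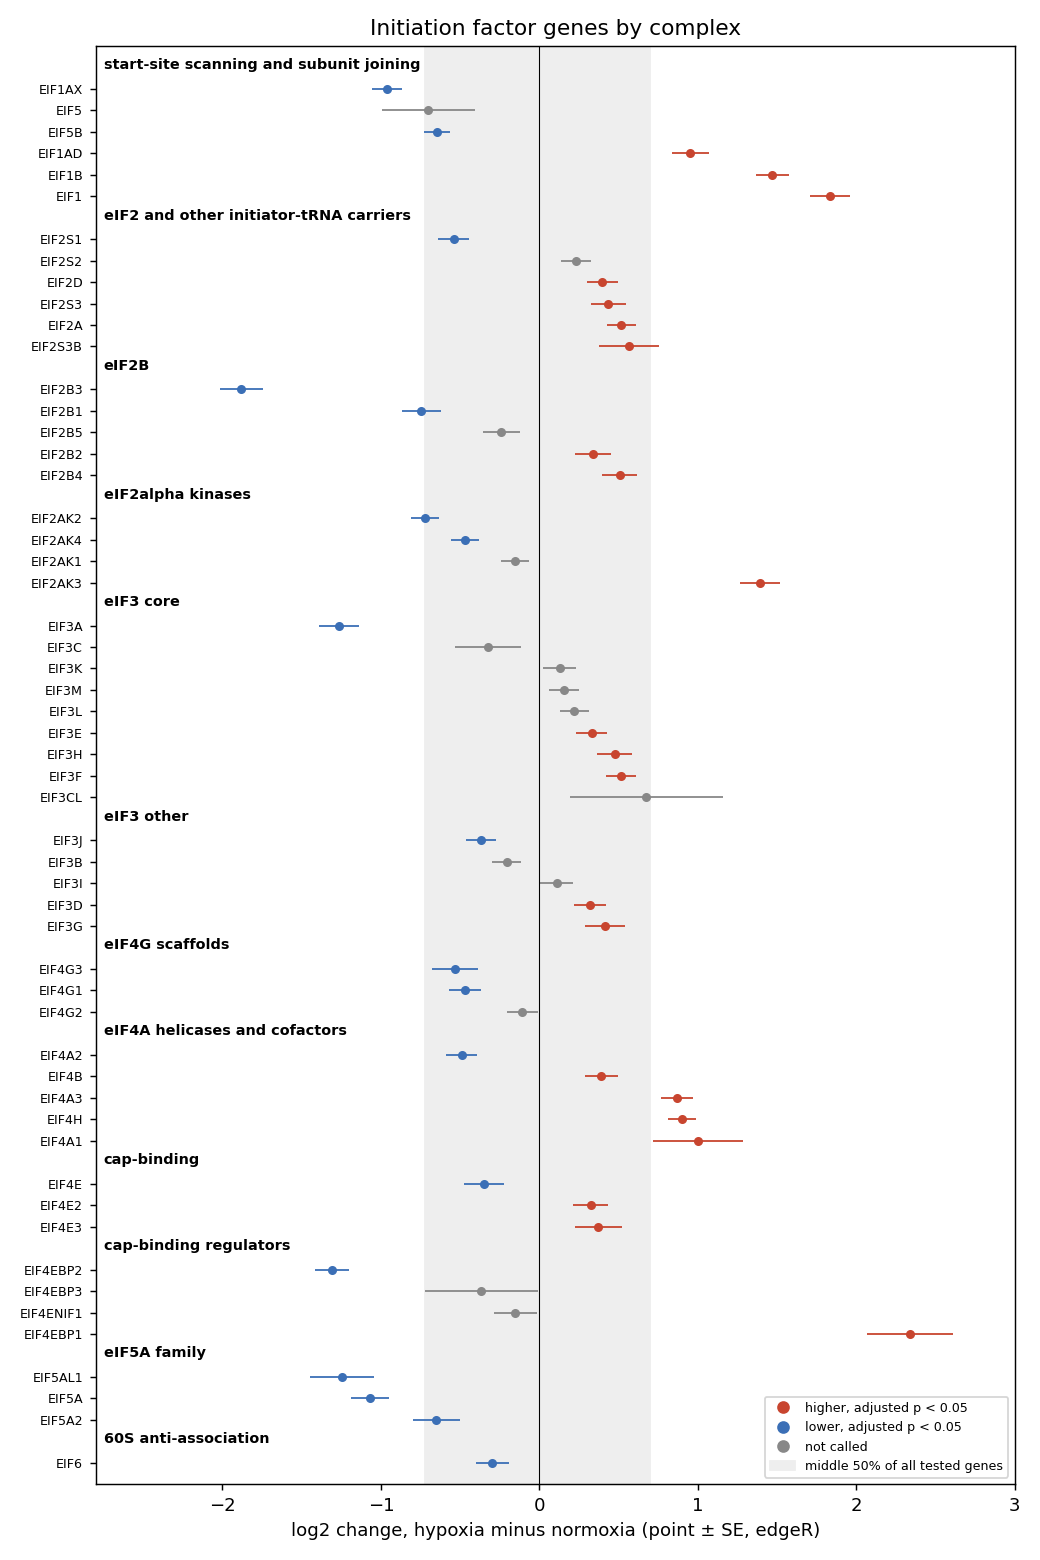
The x axis gives the log2 change, hypoxia minus normoxia, of the 54 tested initiation factor genes with its standard error, grouped by complex on the y axis, with red for higher, blue for lower and grey for not called, and the grey band spanning the middle 50% of all tested genes. Most members sit inside the band, and EIF4EBP1 at 2.34 and EIF2B3 at -1.88 are the ends of the range.

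The direction of the small changes depends on the scaling of the libraries. With library totals alone and no TMM factor, the median of all genes moved to -0.30 and the members' median to -0.19, and 7 members were higher and 25 lower, so that 21.9% of called members were higher in place of 55.0%. The 7 were EIF1, EIF1B, EIF1AD, EIF2AK3, EIF4A3, EIF4H and EIF4EBP1, and all 18 members called lower with TMM were also called lower there. Without the filter on low counts 13 were higher and 21 lower, or 38.2% higher among those called. The other 15 increases are therefore increases relative to the TMM reference. Across 17 alternative settings 20 of the 40 called members kept their call and direction, none reversed, and 10 uncalled members were called in at least 1 setting.

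Some members belong to a class of transcripts that start with a C followed by an unbroken run of pyrimidines. Such a start, called a terminal oligopyrimidine tract, marks ribosomal protein and elongation factor mRNAs whose translation follows mTORC1 activity through the protein LARP1. RefSeq promoters (GRCh38.p14, 250 bases before to 50 after the annotated start) were given for 46 of the 55 members. The 9 without, whose starts are unknown here, were EIF2S2, EIF2AK1, EIF3A, EIF3CL, EIF3E, EIF3G, EIF3H, EIF3L and EIF4EBP1. A start of C followed by at least 4 further C or T was found in 10 of the 46 genes, EIF2A, EIF2D, EIF2S3, EIF2S3B, EIF3D, EIF3F, EIF3K, EIF3M, EIF4A2 and EIF4B, or 16.1% of their 62 promoters, and in 4.07% of all 35116 promoters. Those 35116 were not limited to genes tested here. Among tested genes 809 had such a start and 10188 did not. The starts of 7 of the 10 members, among which EIF4A2 fell and the others rose in hypoxia, and of 2 members without such a run, EIF1 and EIF4EBP2, show the difference. Each line gives 15 bases before and 22 after the start, with the pyrimidine run in capitals.

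EIF3F (chr11:7987322-7987358, + strand): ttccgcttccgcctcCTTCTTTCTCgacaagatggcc

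EIF3D (chr22:36529145-36529181, - strand): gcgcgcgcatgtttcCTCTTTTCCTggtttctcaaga

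EIF2A (chr3:150546772-150546808, + strand): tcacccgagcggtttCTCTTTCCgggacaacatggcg

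EIF2D (chr1:206612444-206612480, - strand): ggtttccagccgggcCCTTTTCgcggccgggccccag

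EIF2S3 (chrX:24054941-24054977, + strand): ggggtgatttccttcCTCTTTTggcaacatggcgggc

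EIF4B (chr12:53006441-53006477, + strand): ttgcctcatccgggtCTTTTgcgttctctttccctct

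EIF4A2 (chr3:186783562-186783598, + strand): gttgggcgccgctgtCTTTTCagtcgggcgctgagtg

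EIF1 (chr17:41688870-41688906, + strand): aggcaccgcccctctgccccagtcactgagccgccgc

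EIF4EBP2 (chr10:70404130-70404166, + strand): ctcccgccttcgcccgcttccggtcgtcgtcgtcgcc

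Of the 10 members with a pyrimidine start, 7 were higher in hypoxia, EIF4A2 was lower, and EIF3K and EIF3M were not called. The 7 include EIF2S3 and its nearly identical copy EIF2S3B, whose reads cannot be cleanly separated. The median log2 change of the 10 was 0.40, over a range of -0.49 to 0.56. Among the 35 tested members with a RefSeq start of another kind, 11 were higher and 16 lower, with a median of -0.32. The 9 members without a RefSeq promoter are in neither class. Among these, EIF4EBP1, EIF3E, EIF3G and EIF3H were higher and EIF3A was lower. A gene with several RefSeq starts counted as a pyrimidine start if any of them held the run, as for EIF2S3B. Over all genes the same split gave 809 tested genes with a pyrimidine start, of which 43.1% were higher and 22.5% lower (median 0.29), and 10188 without, of which 29.9% were higher and 34.9% lower (median -0.07). With the ribosomal protein genes left out, 766 genes with such a start had a median of 0.22. With library totals alone the medians of the 10 and 35 members were 0.09 and -0.64. That scaling shifts all genes by about the same amount and so leaves the difference between the classes untested. The tract is read from 1 annotated start per RefSeq entry, not from starts mapped in these cells. This grouping was chosen after the values were seen and is given as a description with no test.

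**Figure D2:**
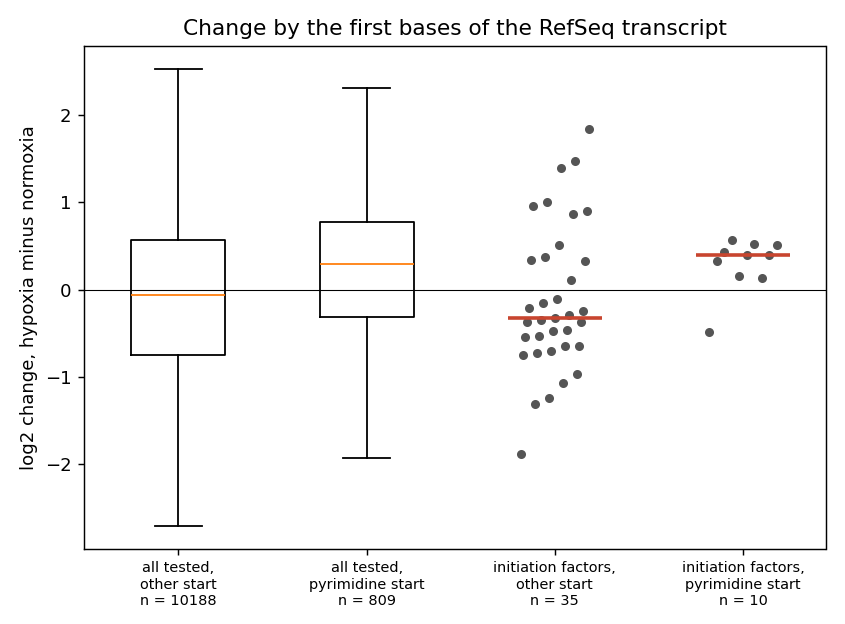
The y axis gives the log2 change, hypoxia minus normoxia, for genes split by whether the RefSeq transcript starts with C and at least 4 further pyrimidines; boxes show the median, quartiles and whiskers to 1.5 times the interquartile range over all tested genes, and points show single initiation factor genes with their median in red. The 10 members with a pyrimidine start lie between -0.49 and 0.56 with a median of 0.40, and the 35 others spread from -1.88 to 1.84.

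The hypoxia response core ACGTG or GCGTG, the letters read by the hypoxia-inducible factors, was counted on both strands, so that an E-box CACGTG counts as 2 matches. All counts run over whole promoters, from 250 bases before the start to 50 after it. The core lay in 48.4% of all 35116 promoters and in 46 of the 62 of members (74.2%), some genes having several. By gene, taking its promoter with the most matches, 14 of 18 higher members, 14 of 17 lower members and 9 of 10 uncalled members held at least 1 match. No share by gene was computed over all genes. EIF4A3 with 7 matches and EIF4H with 6 were the only members of the 46 with at least 6, and both rose. In each, an E-box counted as 2 of the matches. Of the members with 5 matches EIF4B rose, EIF4G1, EIF4E and EIF5A2 fell, and EIF3K was not called. The median number of matches was 1.5 for higher members, 2.0 for lower members and 1.5 for uncalled members. Over all single promoters, 0.923% held at least 6, which is not a share by gene. The E-box CACGTG was in 12 of the 62 member promoters (19.4%) and 7.26% of all promoters, and the ATF4 element TGATGNAAN was in EIF4E3 alone among members and in 3.61% of all promoters. The windows shown run from 250 bases before the start up to it, with the matches on either strand in capitals. Matches after the start were counted but lie outside these windows, as in EIF2B3 with 4 counted and 2 shown. Of the 12 members with an E-box 5 were higher (EIF1B, EIF3F, EIF4A3, EIF4B and EIF4H), 5 were lower (EIF2B3, EIF2AK2, EIF4G1, EIF4E and EIF5A2) and 2 were not called. The 4 windows shown are of the 2 members richest in the core, EIF4A3 and EIF4H, and of EIF1B, which rose, and EIF2B3, which fell.

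EIF1B (chr3:40309457-40309706, + strand): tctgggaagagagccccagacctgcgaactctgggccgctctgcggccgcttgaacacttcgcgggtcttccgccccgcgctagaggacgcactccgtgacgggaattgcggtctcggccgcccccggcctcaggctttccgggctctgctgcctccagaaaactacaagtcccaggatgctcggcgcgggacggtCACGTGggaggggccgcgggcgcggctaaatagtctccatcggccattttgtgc

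EIF4A3 (chr17:80147129-80147378, - strand): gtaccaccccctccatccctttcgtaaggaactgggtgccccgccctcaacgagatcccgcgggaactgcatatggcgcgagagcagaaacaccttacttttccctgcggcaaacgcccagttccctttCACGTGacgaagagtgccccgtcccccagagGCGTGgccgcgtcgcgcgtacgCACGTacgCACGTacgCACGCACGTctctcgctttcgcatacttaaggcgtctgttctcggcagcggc

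EIF4H (chr7:74174106-74174355, + strand): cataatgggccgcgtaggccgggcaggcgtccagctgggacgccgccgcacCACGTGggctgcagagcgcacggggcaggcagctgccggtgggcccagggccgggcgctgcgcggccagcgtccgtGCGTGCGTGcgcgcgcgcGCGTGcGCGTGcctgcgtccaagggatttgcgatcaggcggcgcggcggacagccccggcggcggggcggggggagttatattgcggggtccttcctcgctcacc

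EIF2B3 (chr1:44986596-44986845, - strand): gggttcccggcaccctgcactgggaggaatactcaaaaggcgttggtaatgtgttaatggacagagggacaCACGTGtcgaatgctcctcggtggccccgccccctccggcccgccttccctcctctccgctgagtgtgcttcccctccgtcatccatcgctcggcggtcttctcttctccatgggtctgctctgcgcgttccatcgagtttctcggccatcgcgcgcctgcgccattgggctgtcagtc

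These matches describe letters in annotated windows and are not shown to be sites of binding in these cells.

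Of the 6 genes for start-codon scanning and subunit joining 3 were higher, 2 were lower and EIF5 was not called. EIF1 (chr17:41688885-41692668 in GENCODE on GRCh38, counted over its exons), the factor that keeps the scanning ribosome open and enforces a stringent choice of start codon, stood at 749.8, 719 and 827 CPM in normoxia and 3163, 2504 and 2532 CPM in hypoxia. All hypoxic libraries were more than 3 times any normoxic one, a log2 change of 1.84 ± 0.13 (SE, n = 3 against 3, edgeR quasi-likelihood adjusted p = 7.16e-07). Its paralog EIF1B rose with it, from 46.5, 42.9 and 45.7 to 137, 115 and 122 CPM (1.47 ± 0.10 on the log2 scale, edgeR adjusted p = 7.16e-07). Per kilobase, EIF1B was 0.118, 0.113 and 0.105 of EIF1 in the normoxic libraries and 0.0822, 0.0873 and 0.0914 in the hypoxic ones, so EIF1 remained the main transcript. EIF1AX, which encodes eIF1A, the partner of eIF1 on the small subunit, went the opposite way, from 105, 108 and 111 to 57.4, 58.4 and 50.8 CPM (-0.96 ± 0.10, edgeR adjusted p = 9.88e-06). The eIF1 and eIF1A transcripts, whose proteins act together, thus moved apart without overlap of the groups in either. Processed pseudogenes of EIF1AX, with which its reads may be confused, had counts of 5.99% to 13.1% of its own. EIF1AD, named for its eIF1A-like domain, rose from 20.4 to 39.5 CPM on average (log2 change 0.95).

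The factors for the last steps were lower or split. EIF5B, the GTPase that joins the large subunit, fell from 143, 149 and 147 to 93.0, 92.6 and 95.1 CPM (-0.65 ± 0.08, edgeR adjusted p = 6.78e-05). EIF5, which triggers GTP hydrolysis on eIF2, was at 245, 263 and 269.7 CPM in normoxia and at 119, 115 and 244 CPM in hypoxia. Hypoxia replicates 1 and 2 were far below the normoxic range, whereas replicate 3 was just under it. EIF5 missed the threshold (-0.70 ± 0.30, edgeR adjusted p = 0.0794), and without hypoxia replicate 3 its log2 change was -1.18 (adjusted p = 4.47e-08).

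**Figure D3:**
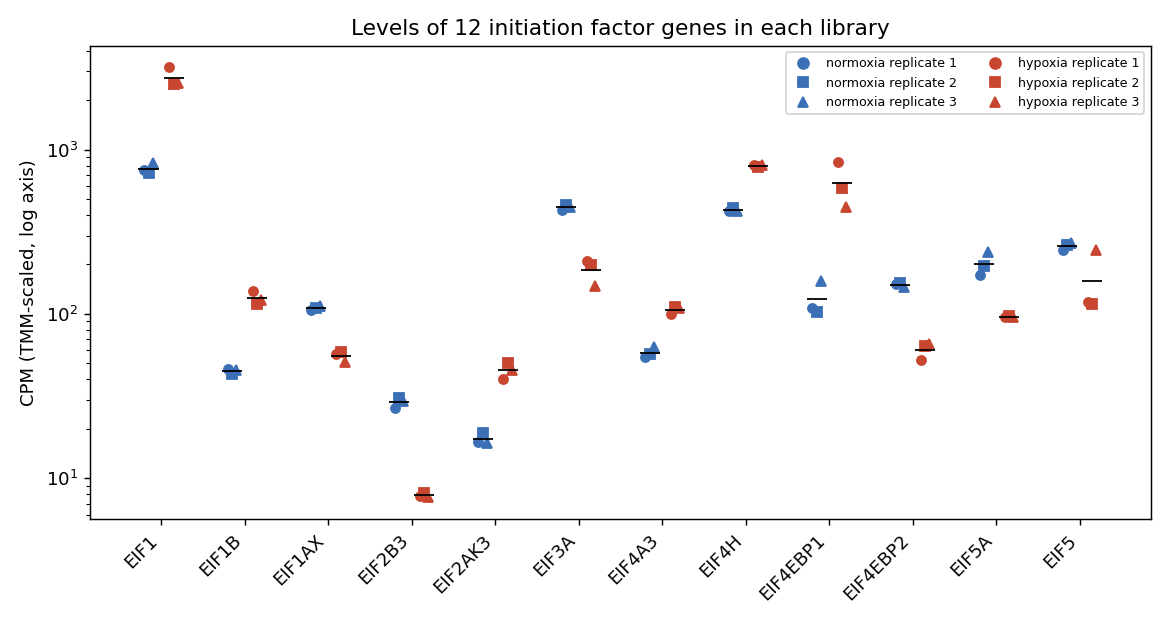
The y axis gives CPM on a log scale for 12 initiation factor genes, with normoxia in blue, hypoxia in red, a marker shape for each replicate number and a black bar for the group mean. In EIF1, EIF1B, EIF2AK3, EIF4A3, EIF4H and EIF4EBP1 the 3 hypoxic libraries sit above all normoxic ones, and in EIF5 hypoxia replicate 3 at 244 CPM lies near the normoxic points.

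The eIF2 subunits did not move together. EIF2S1, the alpha subunit that carries the regulatory phosphorylation site, fell from 181, 196 and 209.8 to 133, 126 and 145 CPM (-0.54 ± 0.10, edgeR adjusted p = 6.57e-04). EIF2S3, the gamma subunit that binds the initiator tRNA, rose from 467, 515 and 554 to 702, 752 and 625 CPM (0.44 ± 0.11, adjusted p = 0.00495 by edgeR). EIF2S2, the beta subunit, had a log2 change of 0.23 and just missed the threshold (edgeR adjusted p = 0.0528), which it passed without hypoxia replicate 3 (adjusted p = 0.0348). EIF2S3B, a nearly identical copy of EIF2S3 whose reads cannot be cleanly separated from it, had overlapping groups and a log2 change of 0.56. Its call (edgeR adjusted p = 0.0238) was lost in several fits, with adjusted p of 0.111 without normoxia replicate 1, 0.0995 without normoxia replicate 2, 0.0634 without hypoxia replicate 1 and 0.11 without hypoxia replicate 2. EIF2A and EIF2D encode proteins that can deliver tRNA to the ribosome without eIF2, and both were higher, EIF2A from 452, 489.9 and 460.0 to 664, 690.0 and 653 CPM (0.52 ± 0.09, edgeR adjusted p = 5.62e-04) and EIF2D by 0.40 on the log2 scale. Per kilobase, EIF2A was 3.41, 3.41 and 3.0 times EIF2S1 in the normoxic libraries and 6.81, 7.52 and 6.16 times in the hypoxic ones, with no overlap. This ratio rose 2.08-fold.

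Among the 5 subunits of eIF2B, the exchange factor that reloads eIF2, the transcript of the gamma subunit EIF2B3 fell far more than the rest. EIF2B3 (chr1:44850522-44986722 on GRCh38) stood at 26.9, 30.6 and 29.4 CPM in normoxia and 7.8, 8.15 and 7.64 CPM in hypoxia, 27.2% of the normoxic mean (-1.88 ± 0.13, edgeR adjusted p = 9.19e-07). EIF2B3 was at 1.24, 1.41 and 1.4 times the median of the other 4 subunits per kilobase in normoxia and at 0.325, 0.36 and 0.33 times in hypoxia. On this per-kilobase scale it was above the median of its partner subunits in every normoxic library and below it in every hypoxic one. That crossing depends on the exon lengths used. By CPM, with no exon length, EIF2B3 was already below EIF2B1, EIF2B2 and EIF2B5 in every normoxic library. EIF2B1, the regulatory alpha subunit, also fell (-0.74 ± 0.12, edgeR adjusted p = 3.40e-04). EIF2B4, the delta subunit, rose (0.51 ± 0.11, adjusted p = 0.00244 by edgeR), and the catalytic EIF2B5 was not called (-0.24, edgeR adjusted p = 0.0969), though it was called lower without hypoxia replicate 3 (adjusted p = 0.00377). EIF2B2, the beta subunit, was called higher at 0.34 (edgeR adjusted p = 0.0241), a call lost with an adjusted p of 0.0774 without normoxia replicate 1, 0.123 without normoxia replicate 2, 0.0631 without normoxia replicate 3 and 0.127 without hypoxia replicate 2.

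Of the 4 kinases that phosphorylate eIF2alpha, only EIF2AK3 was called higher. EIF2AK3 encodes PERK, the sensor of unfolded proteins in the endoplasmic reticulum. The gene (chr2:88556741-88627576 on GRCh38) rose from 16.6, 18.8 and 16.5 to 40.4, 50.4 and 45.4 CPM (1.39 ± 0.13, 2.63-fold, edgeR adjusted p = 4.98e-06). EIF2AK2, which encodes PKR, the kinase activated by double-stranded RNA, fell from 189, 203 and 195 to 120.4, 112 and 123 CPM (-0.72 ± 0.09, edgeR adjusted p = 4.11e-05). EIF2AK4, which encodes GCN2, the sensor of uncharged tRNA, fell from 194, 204 and 209 to 151, 152 and 136 CPM (-0.47 ± 0.09, edgeR adjusted p = 9.84e-04). EIF2AK1, which encodes the heme-regulated kinase HRI, was at 129, 141 and 129 CPM in normoxia and 113, 123 and 122 in hypoxia and was not called (-0.15 ± 0.09, edgeR adjusted p = 0.152). It was called lower without hypoxia replicate 3 (adjusted p = 0.0494). PERK transcripts were the lowest of the 4 per kilobase in every library, at 3.05, 3.46 and 3.03 RPKM in normoxia and 7.43, 9.27 and 8.35 RPKM in hypoxia. The EIF2AK3 to EIF2AK4 ratio rose from 0.188, 0.203 and 0.174 to 0.59, 0.727 and 0.735, a 3.63-fold shift without overlap.

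All 6 genes listed for the eIF2 phosphatase and the response to eIF2 phosphorylation were higher, beside 31.2% of all genes. The list was chosen with earlier results of these data known, so this count is a description only. ATF4, the transcription factor whose mRNA is translated when eIF2 is phosphorylated, rose from 203, 231 and 314 to 1473, 1263 and 1412 CPM (2.47 ± 0.16, edgeR adjusted p = 5.85e-07). DDIT3 (CHOP), a target of ATF4, rose by 2.38 and PPP1R15A (GADD34), the phosphatase subunit that reverses eIF2 phosphorylation, by 2.07 on the log2 scale. The constitutive phosphatase subunit PPP1R15B, the ATF4 target TRIB3 and the adaptor NCK1 made up the rest of the list. Phosphorylation of eIF2 itself was not measured.

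EIF3A had the largest change of the 14 eIF3 genes, of which 5 were higher, 2 lower and 7 not called. Over all genes tested, 62.2% were called. EIF3A (chr10:119033670-119080823 on GRCh38), the largest subunit and the scaffold on which the others assemble, stood at 430.3, 459 and 448 CPM in normoxia and 211, 198 and 149 CPM in hypoxia. The groups did not overlap, and the level was 41.7% of normoxia (-1.26 ± 0.13, edgeR adjusted p = 1.03e-05). Relative to the median of 12 subunits per kilobase, EIF3A was at 1.06, 1.01 and 1.05 in the normoxic libraries and at 0.474, 0.461 and 0.369 in the hypoxic ones. In normoxia it was thus a typical subunit, and in hypoxia the scaffold transcript was below 0.48 of the median subunit. The median subunit itself stayed at 57.3 to 63.8 RPKM in normoxia and 56.9 to 62.6 RPKM in hypoxia. The span from the lowest subunit transcript to the highest was 6.34 to 7.78 times in normoxia and 8.84 to 10.2 times in hypoxia.

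The subunits that rose were EIF3F and EIF3H, which form the module with the MPN domain, EIF3E, EIF3D, which can bind the cap of selected mRNAs, and EIF3G. EIF3F rose from 319, 294 and 309.8 to 476, 413 and 429 CPM (0.51 ± 0.09, edgeR adjusted p = 7.46e-04) and EIF3H by 0.47 ± 0.11 (edgeR adjusted p = 0.0031). The other 3 changes were small and stayed higher when single libraries were left out, but some of those fits missed the threshold. EIF3E (0.33, or 0.27 to 0.35 with single libraries left out, edgeR adjusted p = 0.012) was not called with an adjusted p of 0.0809 without normoxia replicate 1, 0.0536 without normoxia replicate 3 and 0.0576 without hypoxia replicate 2. EIF3D (0.32, or 0.23 to 0.36 with single libraries left out, edgeR adjusted p = 0.0173) was not called with an adjusted p of 0.119 without normoxia replicate 1, 0.0734 without normoxia replicate 2 and 0.0869 without hypoxia replicate 2. EIF3G (0.41, or 0.31 to 0.54 with single libraries left out, edgeR adjusted p = 0.0145) was not called with an adjusted p of 0.0904 without normoxia replicate 1, 0.0957 without normoxia replicate 2 and 0.0722 without hypoxia replicate 1, nor after correction for GC content and exon length (0.621). EIF3J, a loosely held subunit that helps ribosome recycling, fell (-0.37 ± 0.10, edgeR adjusted p = 0.00621), though not with the same correction (0.452). EIF3B, EIF3I, EIF3K, EIF3L and EIF3M were not called, with log2 changes of -0.21 to 0.22. Without hypoxia replicate 3, EIF3L was called higher (adjusted p = 0.033) and EIF3B lower (0.0158), and EIF3B also without normoxia replicate 2 (0.0476). EIF3C and EIF3CL are near-identical copies between which reads cannot be assigned with certainty. Together they stood at 41.9, 54.5 and 54.4 CPM in normoxia and 64.8, 32.3 and 36.5 CPM in hypoxia. The groups overlapped, with hypoxia replicate 1 the highest of all 6 libraries, and neither gene was called, although EIF3C was called lower without hypoxia replicate 1 (adjusted p = 0.0106).

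**Figure D4:**
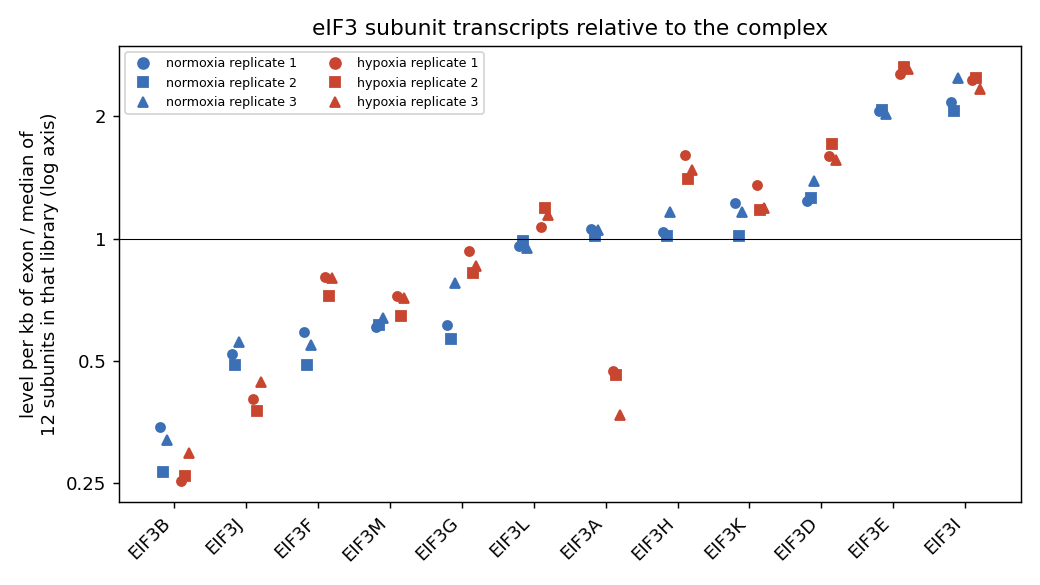
The y axis gives, on a log scale, each eIF3 subunit's level per kilobase of exon divided by the median of the 12 subunits in the same library, with EIF3C and EIF3CL left out, subunits on the x axis, normoxia in blue and hypoxia in red. EIF3A drops from close to 1 to below 0.48 in all hypoxic libraries, while the other subunits keep their approximate order.

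Of the eIF4F scaffolds, EIF4G1, the main eIF4G, fell from 502, 517 and 552 to 346, 367 and 420.2 CPM (-0.47 ± 0.10, edgeR adjusted p = 0.00222). EIF4G3, its less abundant paralog, fell from 119, 129 and 120.1 to 75.1, 70.8 and 107 CPM (-0.53 ± 0.15, edgeR adjusted p = 0.00846), with hypoxia replicate 3 nearest to normoxia. EIF4G2 (DAP5), a scaffold that lacks the eIF4E site and works without it, was at 635, 676 and 654 CPM in normoxia and 572, 586 and 666 in hypoxia and was not called (-0.11 ± 0.10, edgeR adjusted p = 0.363). The EIF4G1 to EIF4G2 ratio per kilobase was 0.829, 0.801 and 0.885 in normoxia and 0.634, 0.656 and 0.662 in hypoxia. The cap-dependent scaffold was therefore lower against the cap-independent one in every hypoxic library, by a factor of 1.29.

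Of the 5 helicase and cofactor genes 4 were called higher and EIF4A2 lower. EIF4H, which stimulates the eIF4A helicase, rose from 425, 440.4 and 421 to 806, 789 and 804 CPM (0.90 ± 0.09, edgeR adjusted p = 9.41e-06). EIF4B, the other helicase cofactor and the most abundant member per kilobase in normoxia, went from 1419.8, 1547 and 1656 to 2124, 2036 and 1907 CPM (0.39 ± 0.11, edgeR adjusted p = 0.0081). Its call was lost with an adjusted p of 0.0636 without normoxia replicate 1 and 0.06 without normoxia replicate 2. EIF4A3, a core protein of the exon junction complex deposited at splicing, rose from 54.3, 56.9 and 63.1 to 99.5, 109.6 and 109 CPM (0.87 ± 0.10, edgeR adjusted p = 2.54e-05). EIF4A2 fell from 1050.1, 1111 and 993 to 772, 738 and 735 CPM (-0.49 ± 0.10, edgeR adjusted p = 0.00115), with no overlap, and just missed the threshold with a correction for GC content and exon length (0.0526). EIF4A1, usually the main helicase of eIF4F, had only 71 to 143 reads in normoxia and 105 to 125 in hypoxia, and its value is uncertain. Its exons overlap those of AC016876.2 and the readthrough gene SENP3-EIF4A1 on the same strand, and its processed pseudogenes held 238% to 670.4% of its own counts. EIF4A1 was called higher (log2 change 1.001 ± 0.28, edgeR adjusted p = 0.0105) with overlapping groups, and nothing is read from it.

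At the cap the 3 expressed eIF4E genes differed in direction by small amounts. EIF4E, the canonical cap-binding protein, was at 62.7, 64.03 and 78.7 CPM in normoxia and 50.3, 49.6 and 60.9 CPM in hypoxia (-0.35 ± 0.13, edgeR adjusted p = 0.031). EIF4E2 (4EHP), which binds the cap in a repressor complex and in hypoxia also in an active complex with HIF2A, was at 56.3, 58.7 and 64.5 CPM in normoxia and 81.3, 77.7 and 65.98 CPM in hypoxia (0.32 ± 0.11, edgeR adjusted p = 0.0245). EIF4E3, a cap-binding relative, was at 12.3, 15.9 and 14.8 CPM in normoxia and 18.8, 19.9 and 17.04 in hypoxia (0.37 ± 0.15, edgeR adjusted p = 0.0477). None of the 3 had overlapping groups, but each call depends on single libraries. EIF4E was not called with an adjusted p of 0.121 without normoxia replicate 3, 0.0901 without hypoxia replicate 1 and 0.11 without hypoxia replicate 2, nor with a correction for GC content and exon length (0.297). EIF4E2 was not called with an adjusted p of 0.127 without normoxia replicate 1, 0.115 without normoxia replicate 2, 0.0988 without hypoxia replicate 1 and 0.0852 without hypoxia replicate 2. For EIF4E3 the call was lost with an adjusted p of 0.229 without normoxia replicate 1, 0.0725 without normoxia replicate 2, 0.0931 without normoxia replicate 3, 0.0984 without hypoxia replicate 1 and 0.14 without hypoxia replicate 2. Ratios within a library do not depend on how the libraries are scaled, but their size depends on the exon lengths used. EIF4E2 per kilobase was 1.76, 1.8 and 1.61 times EIF4E in normoxia and 3.17, 3.07 and 2.12 times in hypoxia, and EIF4E3 was 0.257, 0.323 and 0.246 times EIF4E in normoxia and 0.487, 0.523 and 0.365 times in hypoxia. Both ratios were higher in every hypoxic library than in any normoxic one. In raw counts EIF4E2 was 0.897, 0.917 and 0.819 times EIF4E in normoxia and 1.62, 1.56 and 1.08 times in hypoxia. Pseudogenes of EIF4E held 5.23% to 11.5% of its counts, among which its reads may be split. Of the 4 listed partners of 4EHP, GIGYF1 (0.46) and GIGYF2 (0.27) were higher and RBM4 and ZNF598 were not called.

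The 2 main eIF4E inhibitors moved in opposite directions. EIF4EBP1 (4E-BP1, chr8:38030341-38060365 on GRCh38), which mTORC1 inactivates by phosphorylation, stood at 109, 103 and 159 CPM in normoxia and 844, 580.0 and 449 CPM in hypoxia. The hypoxic libraries spread widely, yet the lowest was 449 CPM against a normoxic maximum of 159, and the log2 change was 2.34 ± 0.27 (5.05-fold, edgeR adjusted p = 2.25e-04), the largest increase among the tested members. It ranged from 2.04 to 2.54 when single libraries were left out. EIF4EBP2 (4E-BP2, chr10:70404379-70428618 on GRCh38), the paralog with the same function, stood at 152, 153 and 146 CPM in normoxia and 52.1, 64.2 and 65.5 CPM in hypoxia, 40.3% of normoxia (-1.31 ± 0.11, edgeR adjusted p = 2.32e-06). EIF4EBP1 was already the more abundant of the 2 per kilobase in normoxia, at 102, 95.6 and 148 RPKM against 20.9, 21.1 and 20.1 RPKM. In hypoxia they stood at 786, 541 and 419 against 7.18, 8.85 and 9.02 RPKM. EIF4EBP1 rose from place 8 to place 2 among members by mean level per kilobase, behind EIF1.

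Set against their target, EIF4EBP1 transcripts per kilobase were 22.8, 21.01 and 26.4 times EIF4E in normoxia and 219.9, 153 and 96.8 times in hypoxia, a 6.36-fold rise with no overlap. In raw counts the ratio was 1.74, 1.6 and 2.02 in normoxia and 16.8, 11.7 and 7.39 in hypoxia, also a 6.36-fold rise. The size of the per-kilobase ratio thus rests on the 14067 exon bases of EIF4E, merged over all its transcripts, and only the fold does not. Per kilobase, EIF4EBP2 was 4.69, 4.64 and 3.6 times EIF4E in normoxia and 2.01, 2.51 and 2.09 times in hypoxia. EIF4EBP3 was below 2.6 CPM everywhere and was not called (-0.37 ± 0.36, edgeR adjusted p = 0.389), and 73.4% of its exon bases are shared with the readthrough gene ANKHD1-EIF4EBP3. EIF4ENIF1 (4E-T), which carries eIF4E into the nucleus and to processing bodies, was at 20.9, 19.97 and 18.4 CPM in normoxia and 16.8, 16.6 and 19.8 in hypoxia and was not called (-0.15 ± 0.13, edgeR adjusted p = 0.347).

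**Figure D5:**
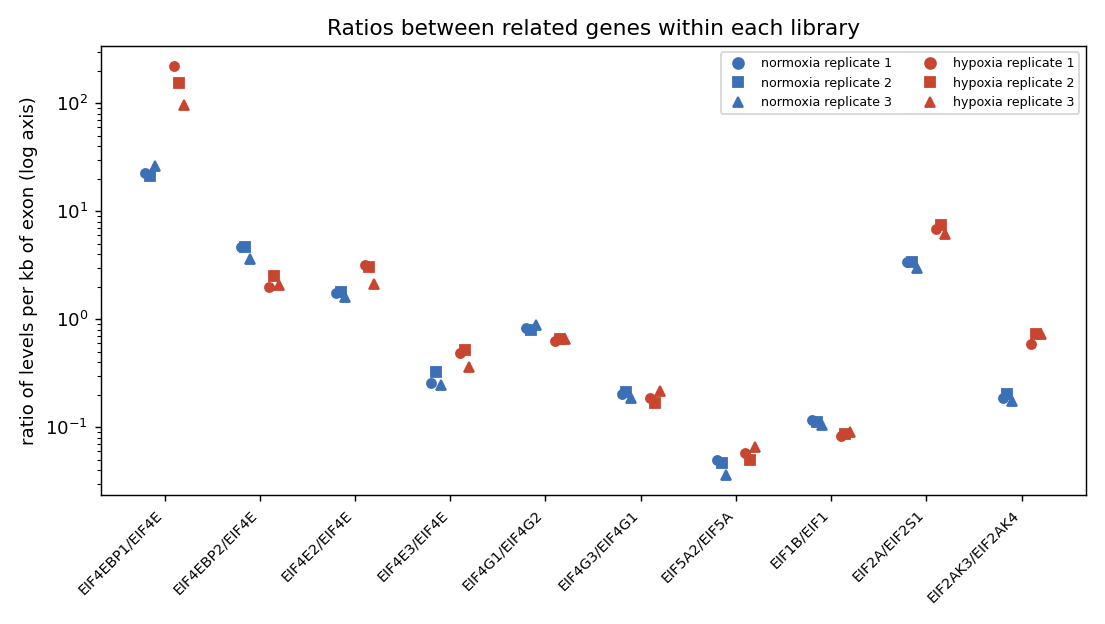
The y axis gives, on a log scale, the ratio of levels per kilobase of exon for 10 pairs of related genes within each library, with normoxia in blue and hypoxia in red. EIF4EBP1/EIF4E and EIF2AK3/EIF2AK4 are higher and EIF4EBP2/EIF4E and EIF4G1/EIF4G2 lower in all hypoxic libraries, while EIF4G3/EIF4G1 and EIF5A2/EIF5A overlap.

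Among 14 listed mTORC1 and cap regulators 6 were higher, 3 lower and 5 not called, beside 62.2% of all genes called. DDIT4 (REDD1), which inhibits mTORC1 in hypoxia, rose from 91.9, 92.03 and 100.4 to 1157, 1233 and 1200.0 CPM (3.66 ± 0.10, edgeR adjusted p = 2.03e-09). MTOR, the kinase itself, fell from 27.1, 26.7 and 29.4 to 5.69, 7.24 and 9.03 CPM (-1.90 ± 0.17, edgeR adjusted p = 4.86e-06). PDCD4, an inhibitor of eIF4A, fell from 89.7, 94.2 and 98.02 to 41.2, 38.2 and 31.96 CPM (-1.34 ± 0.11, edgeR adjusted p = 3.19e-06). The others called were RPTOR, SESN2, AKT1S1, MKNK1 and MKNK2, all higher, and LARP1, lower. No protein or phosphorylation of this pathway was measured.

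All 3 genes of the eIF5A family, whose proteins carry the amino acid hypusine and help ribosomes past difficult stretches, fell. EIF5A (chr17:7306999-7312463 on GRCh38) stood at 172, 197 and 238 CPM in normoxia and 95.8, 97.7 and 95.5 CPM in hypoxia. The hypoxic libraries lay close together at 47.6% of normoxia (-1.07 ± 0.12, edgeR adjusted p = 2.18e-05). EIF5A2, its low-abundance paralog, fell by 0.65 on the log2 scale (edgeR adjusted p = 0.00295), a call lost with a correction for GC content and exon length (0.0892). EIF5AL1 fell as well (-1.25 ± 0.20, edgeR adjusted p = 3.44e-04), but it is a near copy of EIF5A, and its 8.58 CPM in normoxia may be reads of that gene. The enzyme DHPS, which makes the first step of hypusine, rose from 2.0, 1.16 and 0.584 to 4.01, 3.57 and 3.73 CPM (1.56 ± 0.39, edgeR adjusted p = 0.00512), and DOHH, the next enzyme, was not called. DHPS had only 45, 19 and 10 reads in normoxia and 38, 35 and 62 in hypoxia, so its value is uncertain. EIF6, which keeps the large subunit from joining too early, fell from 56.1, 53.2 and 59.5 to 48.1, 47.6 and 42.1 CPM (-0.30 ± 0.10, edgeR adjusted p = 0.0286), a call lost with an adjusted p of 0.0599 without normoxia replicate 1 and 0.0829 without normoxia replicate 3.

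As a share of raw reads the members differed little between groups, while their makeup shifted. They held 1.35 to 1.38% of counts in normoxia and 1.34 to 1.42% in hypoxia. With TMM scaling, used for the levels above, their summed level was higher in every hypoxic library. It was 11756, 12417 and 12697 CPM in normoxia and 16424, 15132 and 14829 CPM in hypoxia. Of the members' counts EIF1 held 5.79 to 6.51% in normoxia and 16.5 to 19.3% in hypoxia. EIF4EBP1 held 0.827 to 1.25% and 3.03 to 5.14%. EIF4B held 12.1 to 13.04% in normoxia and 12.9 to 13.5% in hypoxia. By mean level per kilobase EIF4B, EIF1 and EIF4A2 led in normoxia, and EIF1, EIF4EBP1 and EIF4B in hypoxia.

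Over the whole list of 47 other translation control genes, 22 were higher, 9 lower and 15 not called. Over all genes tested, 31.2% were higher and 31.0% lower. EEF1G had no reads in any library. Whether its reads were lost in counting was not tested, and nothing is read from it. None of the 6 scanning and recycling helpers was higher. CDC123, which assembles eIF2, fell from 87.1, 103 and 105 to 48.1, 43.1 and 49.5 CPM (-1.07 ± 0.11, edgeR adjusted p = 1.22e-05) and ABCE1, which splits ribosomes after termination, by 0.67 on the log2 scale. Of the 5 poly(A)-binding genes 3 were higher, among them PABPC1 and its inhibitor PAIP2 (0.98). Of the 6 elongation genes tested 4 were higher, with EEF2 at 0.64 and EEF1D at 0.77, and the kinase EEF2K was lower. With the GC and length correction EEF2 was at 0.30 and EEF1D at 0.33, and neither was called (edgeR adjusted p = 0.0527 and 0.129). EEF1A2, a tissue-restricted elongation factor, had 1 to 7 reads per library in normoxia and stood at 2.21, 3.77 and 4.03 CPM in hypoxia. It passed the read filter only through its hypoxic libraries. Its call is among the 4 and the 22 counted as higher here, and nothing is read from it. Of the 3 termination genes 2 fell, with ETF1 at -0.92 and GSPT2 at -2.65, while GSPT1 was not called.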

How the data were processed

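The authors deposited a table of raw read counts per Ensembl gene for the 6 libraries. Per the submitters' processing notes, fastp 0.20.1, HISAT2 2.1.0, featureCounts 2.0.1 and DESeq2 1.37.5 were used. Neither labels nor headers name the genome build, the annotation release or the strand setting (not given in the sources used here), so reads of a gene and of an overlapping gene on the other strand cannot be told apart. A deposited table of normalized values was not used, because its cells run together.

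Groups and replicate numbers came from the sample titles. The labels call the libraries biological replicates without saying which cultures were separate, so p-values measure the spread between these libraries. Symbols came from a table of gene names, and exon lengths, types and overlaps from GENCODE on GRCh38. The exon length of a gene is that of the merged exons of all its transcripts. A single line without a gene, 0.00243% of counts, was left out. Counts were fitted with edgeR 4.0.16 (R 4.3.3): filterByExpr with a minimum count of 10, TMM scaling, a robust quasi-likelihood F test of hypoxia against normoxia and Benjamini-Hochberg adjustment over 16411 genes at 0.05. Standard errors were taken from the log2 change and the F value, as |log2 change| over the root of F. The scripts were tested on simulated data. Alternatives were DESeq2 1.42.0, limma-voom (limma 3.58.1), other scalings and filters, a correction for GC content and length, a replicate block, a threshold of 0.01 and leaving out each library. Every tested member could be named, with full statistics for called members by size and for all cap-binding genes, their regulators and eIF2alpha kinases. Of the list of other genes, up to 15 called genes by size and at most 3 per subgroup were to be described, plus members named to complete a count. The members and lists were chosen with earlier results of these data known.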

Additional observations from a re-analysis of the deposited data

How the results depend on the processing

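Among the initiation factor genes, 22 higher and 18 lower calls became 7 and 25 with library totals alone, 13 and 21 without the filter on low counts, and 14 and 16 at an adjusted p of 0.01 in edgeR. Leaving out single libraries gave 14 to 24 higher and 16 to 22 lower. The members' median log2 change was -0.19 with library totals alone, -0.00933 without the filter and -0.0331 to 0.14 when single libraries were left out. Uncalled members changed sign in a few fits. With library totals alone EIF2S2 was at -0.0814, EIF3K at -0.18, EIF3L at -0.0872, EIF3M at -0.15 and EIF3I at -0.20. Without the filter EIF3I was at -0.0191, EIF3CL ranged from -0.19 without hypoxia replicate 1 to 0.95 without hypoxia replicate 2, and with the GC and length correction EIF4G2 was at 0.0913. No called member changed sign. The counts in the list of other genes stayed within 1.5 times in all fits.

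The labels do not say whether same-numbered libraries were handled together. Same-numbered libraries correlated in their deviations from the group mean at -0.11, 0.09 and -0.04. With 3 libraries per group these values cannot show whether the samples were paired. With the replicate block 20 members were higher and 18 lower. EIF4E2, EIF4E3 and EIF6 missed the threshold, and EIF5 passed it.

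Library totals differed by less than 2 times, and the low members EIF4EBP3 and EIF3CL had wide errors. EIF4A1, EIF3C, EIF3CL, EIF2S3B and EIF5AL1 share sequence with other loci, which no fit here resolves. Transcript levels do not give protein levels or phosphorylation.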
